A study of Homo sapiens with 14 samples.

Results

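NRF2 targets and genes of redox defence were followed through long-term culture (LTC) of SW620 colorectal cancer cells. The 10 genes (NQO1, HMOX1, GCLM, GCLC, TXNRD1, SRXN1, SLC7A11, GPX2, FTH1 and FTL) form a set proposed with earlier results of these data known, and were picked out by symbol, not by a threshold on a measured value, among the 36601 genes of the single-cell matrices and the 60624 genes of the bulk tables, and all 10 were present in both. NRF2, the product of NFE2L2, is a transcription factor that KEAP1 holds in the cytoplasm and hands to the proteasome. Oxidants and electrophiles release it, and it then binds antioxidant response elements together with a small MAF protein. Its targets import cystine, make glutathione, reduce thioredoxin and peroxides, detoxify quinones, break down heme and store iron.

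SW620 was derived from a lymph node metastasis of a colorectal cancer, and SW480 from the primary tumour of the same patient. SW620 cells and SW620-TET2CD cells, which overexpress the catalytic domain of the DNA demethylating enzyme TET2, were grown without passage, and the study gives the SW620 control as a line with an empty FLAG vector. Droplet 3' single-cell RNA-seq was done on days 6, 9, 12 and 15 of both lines, with 1 library for each line and day, 8 in all. Bulk RNA-seq was done on 6 libraries, namely SW480 and SW620 on day 6, and on day 15 the colonies (inside) and the loose cells around them (outside) of SW620 and of SW620-TET2CD, parted by a strainer. No culture was repeated, so the p-values below use days of a period, or the other line, as replicates, and how far repeat cultures would differ is not known.

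Of 67056 cell barcodes, 48282 passed the limits on UMIs, genes and mitochondrial share that the study states, and the UMIs (unique molecules) of the kept cells summed to between 48186195 and 74185723 in a library. The study's own count of kept cells is lower, for a reason its methods do not state. At this depth 3 UMIs correspond to between 0.0404 and 0.0623 CPM (counts with each library scaled to the same total). At most 23 kept barcodes were shared by a pair of libraries. TET2 was read at 2.11, 2.32, 3.9 and 2.93 CPM in SW620 on days 6, 9, 12 and 15, and at 107, 59.5, 40.2 and 41.6 CPM in SW620-TET2CD, which matches the labels. The 7 colorectal epithelial markers summed to between 8099 and 12240 CPM, although LGALS4 did not exceed 1.75 CPM. Immune markers moved with time. The 5 of them summed to between 7.48 and 17.4 CPM on days 6 and 9 and to between 23.9 and 57.6 CPM on days 12 and 15, all but a little of it from LYZ and CD68, while PTPRC, CD3E and CD14 stayed under 1 CPM in every library. The 5 fibroblast markers summed to between 16.6 and 28.7 CPM early and between 8.37 and 12.9 CPM late. The part of these changes in the results below was not tested.

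The promoters of the members are shown as background, and whether a match goes with a change in level was not tested. RefSeq start sites (GRCh38.p14) were listed for 7 of the 10 members, in 8 entries. The core of the antioxidant response element, TGACNNNGC on either strand, was searched from 250 bases before to 50 bases after the start site, and 13.3% of all 35116 promoters of that length held it. Counted by gene and not by entry, 3 of the 7 members held it, namely GCLM, TXNRD1 and GPX2. It was not in the windows of NQO1, GCLC, SRXN1 and FTL. The 150 bases before the start site are given 5' to 3' on the strand of the gene, with a match in capitals. They are GCLM (chr1:93909431-93909580, minus strand), both start sites of TXNRD1 (chr12:104215629-104215778 and chr12:104286882-104287031, plus strand), GPX2 (chr14:64942746-64942895, minus strand) and, without a match, SRXN1 (chr20:653201-653350, minus strand).
GCLM: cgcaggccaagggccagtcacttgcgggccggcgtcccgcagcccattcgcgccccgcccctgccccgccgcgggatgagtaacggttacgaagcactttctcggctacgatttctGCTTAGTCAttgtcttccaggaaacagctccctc
TXNRD1, first start site: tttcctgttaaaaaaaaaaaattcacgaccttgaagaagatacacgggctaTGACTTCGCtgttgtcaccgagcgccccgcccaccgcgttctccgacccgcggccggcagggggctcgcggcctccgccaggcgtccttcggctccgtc
TXNRD1, second start site: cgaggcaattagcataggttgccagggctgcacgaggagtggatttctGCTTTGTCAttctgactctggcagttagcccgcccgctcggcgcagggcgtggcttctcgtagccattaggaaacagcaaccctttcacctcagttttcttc
GPX2: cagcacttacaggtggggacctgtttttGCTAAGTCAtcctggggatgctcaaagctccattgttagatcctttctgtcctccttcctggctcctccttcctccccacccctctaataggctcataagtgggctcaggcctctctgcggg
SRXN1: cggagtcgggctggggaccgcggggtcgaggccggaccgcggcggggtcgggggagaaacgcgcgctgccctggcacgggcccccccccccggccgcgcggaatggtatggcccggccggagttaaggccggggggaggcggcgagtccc
The matches begin 34 bases before the start site in GCLM, 99 and 102 bases before it in the TXNRD1 entries and 122 bases before it in GPX2. The first TXNRD1 entry holds another match 8 bases before the start, which runs past the end of the printed stretch and is left in lower case.

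The first question was how these genes changed from the early days (6 and 9) to the late days (12 and 15) of LTC, the span over which the study follows where TET2 lies in the cell. SLC7A11 rose, while GCLM, SRXN1, TXNRD1, FTL and HMOX1 fell. The cystine importer thus rose while a subunit of glutathione synthesis and 2 enzymes of the thioredoxin system fell. With the line as a block, 1 of the 10 members was higher (29.4% of the 16526 genes tested were) and 5 were lower (28.6% of all genes were). The members' median log2 fold change was -0.54, against 0.04 over all genes tested, and 9 of the 10 had a fold change below 0. The libraries of the early and late days did not overlap for 4 members (GCLM, TXNRD1, SRXN1 and SLC7A11), as was so for 52.3% of all genes.

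SLC7A11 (ENSG00000151012, chromosome 4, 138164097 to 138242349, minus strand) encodes the light chain of the cystine-glutamate exchanger, which brings in the cystine that limits glutathione synthesis. It stood at 6.41, 8.78, 25.2 and 62.7 CPM in SW620 on days 6, 9, 12 and 15, and at 5.9, 7.22, 18.2 and 59.6 CPM in SW620-TET2CD. Each line rose at every step, and day 15 was 9.78-fold above day 6 in SW620 and 10.1-fold above it in SW620-TET2CD. The fitted log2 fold change of late over early days was 2.45 (SE 0.37, edgeR adjusted p = 0.000336).

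**Figure D1:**
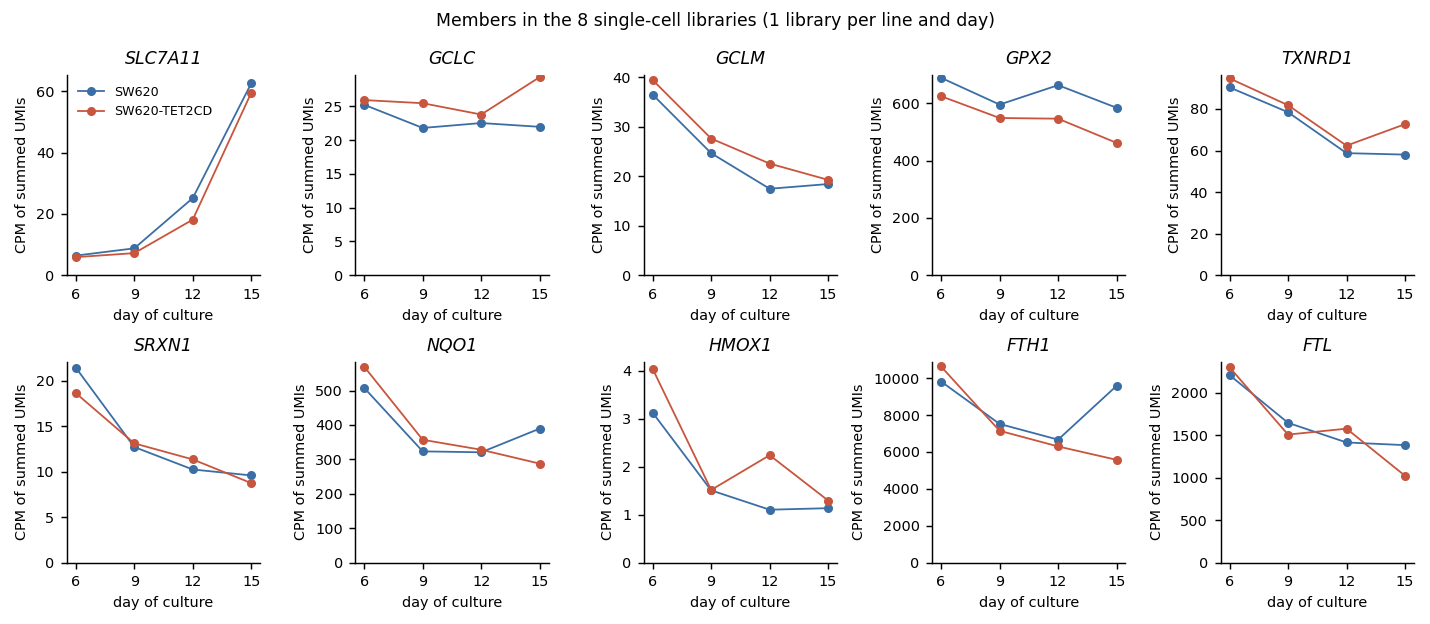
CPM of summed UMIs of each member (vertical axes, each from 0) by day of culture in SW620 (blue) and SW620-TET2CD (red), 1 library per point and no error bars. SLC7A11 climbed 10.1-fold in SW620-TET2CD while GCLM, SRXN1 and TXNRD1 declined in both lines.

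The first step of glutathione synthesis is carried out by glutamate-cysteine ligase, of which GCLC is the catalytic and GCLM the modifier subunit. GCLM (ENSG00000023909, chromosome 1, 93885199 to 93909456, minus strand) fell. It stood at 36.5, 24.7, 17.5 and 18.4 CPM over the 4 days in SW620 and at 39.5, 27.6, 22.6 and 19.3 CPM in SW620-TET2CD, with no late library as high as an early one (log2 fold change -0.83, SE 0.17, edgeR adjusted p = 0.00196). GCLC (ENSG00000001084, chromosome 6, 53497341 to 53616970, minus strand) did not pass the test. It lay at 25.2, 21.8, 22.5 and 22 CPM in SW620 and at 25.9, 25.5, 23.8 and 29.3 CPM in SW620-TET2CD, and its fold change of -0.12 (SE 0.11, edgeR adjusted p = 0.347) turned to 0.05 with upper-quartile factors, which raised the median of all genes by 0.17. GPX2 (ENSG00000176153, chromosome 14, 64939152 to 64942746, minus strand), a glutathione peroxidase of the gut epithelium, did not pass either. Its level ranged from 549 to 689 CPM on the early days and from 462 to 664 CPM on the late days (log2 fold change -0.23, SE 0.13, edgeR adjusted p = 0.147), and it passed with every barcode (adjusted p = 0.0396) and in cells with few cell-cycle transcripts (adjusted p = 0.0262).

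Both members of the thioredoxin system fell. TXNRD1 (ENSG00000198431, chromosome 12, 104215779 to 104350307, plus strand), the cytosolic thioredoxin reductase, went from 90.4 and 78.5 CPM on days 6 and 9 to 58.8 and 58.1 CPM on days 12 and 15 in SW620. In SW620-TET2CD it went from 94.7 and 81.8 to 62.4 and 72.7 CPM (log2 fold change -0.57, SE 0.11, edgeR adjusted p = 0.00151). SRXN1 (ENSG00000271303, chromosome 20, 646615 to 653200, minus strand), the sulfiredoxin that repairs overoxidised peroxiredoxins, went from 21.5 and 12.7 to 10.2 and 9.59 CPM in SW620. In SW620-TET2CD it went from 18.7 and 13.1 to 11.4 and 8.74 CPM (log2 fold change -0.83, SE 0.19, edgeR adjusted p = 0.00399). For both genes the early libraries all stood above the late ones. SRXN1 missed the threshold when the test was confined to cells with few cell-cycle transcripts (log2 fold change -0.52, edgeR adjusted p = 0.0527).

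NQO1 (ENSG00000181019, chromosome 16, 69706996 to 69726668, minus strand), the quinone reductase often read as an index of NRF2 activity, had its highest level on day 6, at 508 CPM in SW620 and 569 CPM in SW620-TET2CD. The other libraries ranged from 288 to 389 CPM. Its fold change of -0.51 (SE 0.21, edgeR adjusted p = 0.0602) missed the threshold, and it passed by DESeq2 (adjusted p = 0.0348), without the low-count filter (0.000582) and in cells with few cell-cycle transcripts (0.0332). NQO1 also passed without SW620 of day 9, SW620-TET2CD of day 9 or SW620 of day 15 (adjusted p from 0.0179 to 0.0453), whereas its fold change shrank to -0.31 without SW620-TET2CD of day 6 (adjusted p = 0.203) and to -0.34 with upper-quartile factors (0.155). HMOX1 (ENSG00000100292, chromosome 22, 35380361 to 35394214, plus strand), the inducible heme oxygenase, was rare, with between 56 and 300 UMIs per library. It stood at 3.13, 1.51, 1.1 and 1.13 CPM in SW620 and at 4.04, 1.52, 2.24 and 1.29 CPM in SW620-TET2CD, so that the 2 libraries of day 6 were above all others and the periods overlapped. Its late over early fold change was -0.95 (SE 0.35, edgeR adjusted p = 0.0392), and leaving out either library of day 6, either of day 15 or SW620 of day 12 ended the call (adjusted p from 0.0743 to 0.181), as did upper-quartile factors (adjusted p = 0.0759) and the removal of the 8% of cells with most UMIs (0.0562).

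Ferritin, the iron store, is built of a heavy chain (FTH1, ENSG00000167996, chromosome 11, 61959718 to 61967634, minus strand), which oxidises iron, and a light chain (FTL, ENSG00000087086, chromosome 19, 48965309 to 48966879, plus strand). FTL fell. It stood at 2210, 1647, 1415 and 1384 CPM over the 4 days in SW620. In SW620-TET2CD it stood at 2302, 1508, 1578 and 1022 CPM (log2 fold change -0.61, SE 0.2, edgeR adjusted p = 0.0231). Leaving out either library of day 6, SW620 of day 12 or SW620-TET2CD of day 15 ended this call, with adjusted p from 0.0513 to 0.0834, and so did upper-quartile factors (adjusted p = 0.0657). FTH1 did not pass (log2 fold change -0.43, SE 0.22, edgeR adjusted p = 0.109), except without the low-count filter (adjusted p = 0.00454). It went 9824, 7522, 6669 and 9590 CPM in SW620 and 10639, 7150, 6301 and 5574 CPM in SW620-TET2CD. SW620 of day 15 was the highest late library, and without it the fold change was -0.65 (edgeR adjusted p = 0.017). The fold change shrank to -0.25 without SW620-TET2CD of day 6 (edgeR adjusted p = 0.324) and to -0.27 with upper-quartile factors (0.26). Both ferritin genes have many processed pseudogenes, and how reads were shared among the copies is not known here. In bulk the listed pseudogenes held between 0.0268% and 0.186% of the TPM of parent gene and pseudogenes together.

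**Figure D2:**
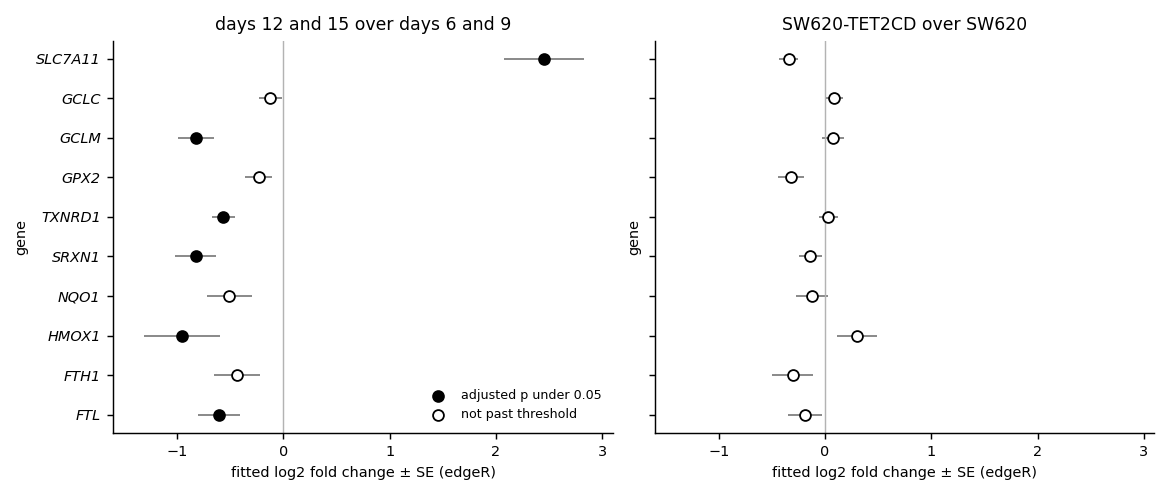
Fitted log2 fold change (horizontal axis, with SE) of each member (vertical axis) for days 12 and 15 over days 6 and 9 (left) and for SW620-TET2CD over SW620 (right). Filled points, 6 on the left and 0 on the right, are past an adjusted p of 0.05 among 16526 genes tested.

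The separate steps between days were fitted with the line as a block and the other line as the sole replicate of a day. From day 6 to day 9, 1 of 10 members passed (0.926% of all genes did), namely HMOX1 (log2 fold change -1.26, SE 0.26, edgeR adjusted p = 0.0448), a call that was lost on leaving out any 1 of the 4 libraries of these days. The members' median log2 fold change over this step was -0.53, against 0.009 over all genes, with 9 of 10 below 0 and 6 at an unadjusted p under 0.05 (16.5% of all genes were). That median was -0.31 without SW620-TET2CD of day 6 and -0.59 without SW620 of day 6. The uncalled values were -0.69 for NQO1, -0.66 for SRXN1, -0.57 for GCLM, -0.55 for FTL, -0.52 for FTH1, -0.23 for TXNRD1, -0.22 for GPX2, -0.14 for GCLC and 0.35 for SLC7A11 (edgeR adjusted p from 0.0624 to 0.579). From day 9 to day 12, 3 members passed (44% of all genes did). SLC7A11 rose by 1.32 on the log2 scale (SE 0.13, edgeR adjusted p = 3.27e-05), GCLM fell by 0.49 (SE 0.15, adjusted p = 0.018) and TXNRD1 fell by 0.51 (SE 0.13, adjusted p = 0.00717). Leaving out either library of day 9 or SW620 of day 12 ended the last 2 calls, as did keeping only cells with few cell-cycle transcripts, and the call of GCLM was also lost with upper-quartile factors and with every barcode. The members' median over this step was -0.17, but -0.42 without SW620-TET2CD of day 12 and -0.002 with upper-quartile factors. NQO1 (-0.17), SRXN1 (-0.36), FTL (-0.17), FTH1 (-0.28) and GPX2 (-0.03) had smaller, uncalled values than from day 6 to day 9. From day 12 to day 15 SLC7A11 alone among the members passed (13.7% of all genes did), with a further rise of 1.54 (SE 0.13, edgeR adjusted p = 0.000394). The members' median over this last step was 0.03, and its sign turned on single libraries. It was -0.33 without SW620 of day 15, -0.09 without SW620 of day 12 and 0.14 without SW620-TET2CD of day 12. For 8 of the 9 members with a late over early fold change below 0, all but TXNRD1, the lowest of the 3 step values was thus that from day 6 to day 9. By edgeR HMOX1 alone was called there, beside 153 genes over all, and DESeq2 called 4 members and 371 genes. Whether the steps differ from one another was not tested.

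Taken line by line, 4 members passed between the periods in SW620 (37.4% of all genes did) and 3 in SW620-TET2CD (32.9% of all genes did) by edgeR, and 4 and 7 by DESeq2 (33.5% and 31.2% of the genes it adjusted), which turns the order of the counts. The members' median log2 fold change was -0.39 in SW620 and -0.72 in SW620-TET2CD. These medians moved with single libraries. Without SW620 of day 6 that of SW620 was -0.16, and without SW620 of day 9 it was -0.62. Without SW620-TET2CD of day 6 that of SW620-TET2CD was -0.35, against -0.4 in SW620, and without SW620-TET2CD of day 9 it was -1.01. By edgeR, SLC7A11, GCLM and TXNRD1 were called in each line, with log2 fold changes of 2.52 and 2.38, -0.82 and -0.84, and -0.58 and -0.55. SRXN1 was called in SW620 (-0.84, edgeR adjusted p = 0.0458) and had nearly the same value in SW620-TET2CD (-0.82, adjusted p = 0.0553). The difference between the lines was tested as an interaction. No member passed it, nor did any gene (0% of 16526), with 0 members and 130 genes at an unadjusted p under 0.05 by edgeR and 0 genes called by DESeq2.

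Other redox and iron genes were taken from 8 lists, of which 97 genes could be tested beside the members. Of these, 19 rose, 47 fell and 31 did not pass between early and late days, with a median log2 fold change of -0.33, against 0.04 over all genes, of which 29.4% rose and 28.6% fell. Of the thioredoxins and peroxiredoxins 10 of 15 fell and 3 rose, of the enzymes that supply NADPH 5 of 8 fell and 0 rose, and of the glutathione genes 11 of 22 fell and 3 rose. Quinone, aldehyde and xenobiotic enzymes had 7 of 13 lower and 2 higher, heme and iron genes 6 of 16 lower and 4 higher, ferroptosis guards 3 of 7 lower and 2 higher, and superoxide and peroxide enzymes 2 of 5 lower. Of the NRF2 regulators, 5 of 11 were higher and 3 lower. The lists were not tested against one another or against all genes.

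NRF2 and its inhibitor moved in opposite directions. NFE2L2 ranged from 45.9 to 48 CPM on the early days and from 54.7 to 76.1 CPM on the late days (log2 fold change 0.37, SE 0.12, edgeR adjusted p = 0.0232), and leaving out any library but those of day 12 ended the call (adjusted p from 0.0509 to 0.0713), as did every barcode (0.0505) and no low-count filter (0.0586). KEAP1 fell from between 38.4 and 42 CPM to between 18.6 and 24.4 CPM (log2 fold change -1, SE 0.11, edgeR adjusted p = 7.01e-05). MAFF, a small MAF protein, rose from a mean of 5.55 to 14.9 CPM. Transcript levels of NFE2L2 and KEAP1 do not measure NRF2 protein.

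Among the deepest falls of the other genes were those of AKR1B1, the aldose reductase (51.4 to 14.9 CPM, log2 fold change -1.93), GSTP1, a glutathione S-transferase (2581 to 1009 CPM, -1.46), and EPHX1, the microsomal epoxide hydrolase (22.1 to 9.26 CPM, -1.36). The highest rises were those of TXNIP, which binds and inhibits thioredoxin (177 to 1653 CPM, 3.11), MAFF (1.32), ABCC3, an exporter of conjugates (25.3 to 67.1 CPM, 1.29), and SCD, the stearoyl-CoA desaturase (94 to 224 CPM, 1.16). In each of these 7 genes, picked for large changes past the threshold, every late library lay on 1 side of every early library. The same was so for 52.3% of all genes. The edgeR adjusted p ranged from 4.7e-05 for MAFF to 0.00504 for SCD.

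Across these days the share of cycling cells (at least 4 UMIs of 20 cell-cycle genes in 2000 UMIs drawn from a cell) was between 53.3% and 67.1% on days 6 and 9 and between 4.84% and 12.7% on days 12 and 15. Within a library, cycling cells had more GCLM, SRXN1 and TXNRD1 and less SLC7A11, GPX2, FTH1 and FTL than cells with at most 1 such UMI. Library as a block gave 3 members higher (26.9% of 14853 genes were) and 4 lower (28.7% of all genes were). No member was among the genes of the score.

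SRXN1 was higher in cycling cells of 8 of 8 libraries (log2 fold change 0.46, SE 0.059, edgeR adjusted p = 3.13e-05), as was GCLM (0.37, SE 0.05, adjusted p = 4.99e-05). TXNRD1 was also higher in 8 of 8 (0.16, SE 0.041, adjusted p = 0.0059), a value that came to 0.05 with upper-quartile factors and to 0.11 in the late libraries alone, neither of them past the threshold. GPX2 was lower in cycling cells of 8 of 8 libraries (-0.58, SE 0.074, edgeR adjusted p = 3.19e-05), and so were SLC7A11 (-0.53, SE 0.067, adjusted p = 2.56e-05), FTL (-0.35, SE 0.045, adjusted p = 3.37e-05) and FTH1 (-0.33, SE 0.063, adjusted p = 0.000787). In cells with few cell-cycle transcripts alone, 7 members passed between early and late days (46.6% of the 15263 genes tested there did). SLC7A11 (log2 fold change 2.15), HMOX1 (-1.39), FTL (-0.65), NQO1 (-0.57) and GPX2 (-0.38) were among them, and GCLM and TXNRD1 passed with smaller values, -0.48 in place of -0.83 and -0.36 in place of -0.57 (edgeR adjusted p = 0.022 and 0.0145).

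**Figure D3:**
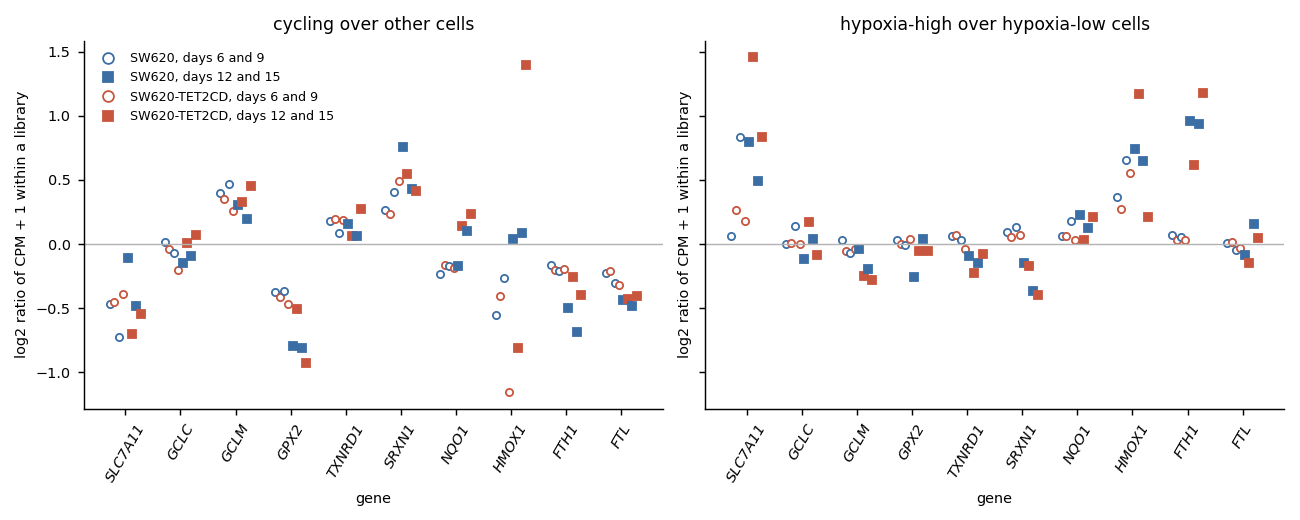
Log2 ratio of CPM + 1 (vertical axes) of each member (horizontal axes) between 2 classes of cells of the same library, cycling over other cells (left) and hypoxia-high over hypoxia-low cells (right), with 1 point per library. SRXN1 and GCLM lay above 0 and GPX2 and SLC7A11 below 0 in cycling cells of 8 of 8 libraries, and FTH1 on the right was near 0 on days 6 and 9 (0.03 to 0.07) and between 0.61 and 1.18 on days 12 and 15.

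To see whether members differed with the response to low oxygen, cells were also split within each library by 20 hypoxia-responsive genes, at the 75th and 25th percentiles of their UMIs in 2000. HMOX1 and SLC7A11 were higher in hypoxia-high cells of 8 of 8 libraries, 2 members higher (7.18% of 14256 genes were) and 0 lower (5.41% of all genes were). HMOX1 differed by 0.82 on the log2 scale (SE 0.17, edgeR adjusted p = 0.0484) and SLC7A11 by 0.66 (SE 0.14, adjusted p = 0.0484). The HMOX1 values rest on few UMIs, with 56 to 300 in a whole library. It ranged from 1.5 to 4.54 CPM in hypoxia-high and from 0.515 to 3.59 CPM in hypoxia-low cells. Both calls were lost without SW620 of day 9 or without any library of days 12 and 15, with adjusted p from 0.0672 to 0.136, and SLC7A11 also missed it with upper-quartile factors (0.0515). NQO1, at 0.12 (SE 0.047, edgeR adjusted p = 0.0869), did not pass although hypoxia-high cells were higher in 8 of 8 libraries, and nor did GCLM, at -0.11 (SE 0.047, adjusted p = 0.0993), higher in 1 of 8.

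FTH1 was higher in hypoxia-high cells of 8 of 8 libraries too. Its value of 0.49 over all libraries (SE 0.16, edgeR adjusted p = 0.0574) did not pass, although it did by DESeq2 (adjusted p = 0.0211). The log2 ratio was between 0.03 and 0.07 in the 4 early libraries and between 0.61 and 1.18 in the 4 late ones. In the late libraries alone, an analysis added after the data were seen, the log2 fold change was 0.95. A p-value would not be independent of that choice, so none is given. Far more genes passed in that fit than the 1794 of the main fit. The difference of 0.87 between the periods had p = 0.0556 in an exact two-sided permutation test within lines, the smallest that its 36 arrangements allow (adjusted p = 0.167 over 3 genes). The contrast itself was narrower early. The 75th percentile of the score was 1 or 2 UMIs on days 6 and 9 and 6 UMIs on days 12 and 15, and the 25th percentile was 0 on the early days and 1 or 2 on the late days. The log2 ratios of FTL ranged from -0.15 to 0.16 over the 8 libraries.

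FTH1 was next followed cell by cell, because a summed level does not show how cells differ. The FTH1 share of UMIs in the median cell went 0.891%, 0.651%, 0.468% and 0.584% over the 4 days in SW620, and 0.947%, 0.636%, 0.48% and 0.38% in SW620-TET2CD. Over the same days the 99th percentile went 2.41%, 1.98%, 3.53% and 6.22% in SW620 and 2.69%, 1.93%, 3.2% and 3.77% in SW620-TET2CD. The median was 0.781% ± 0.161 on early and 0.478% ± 0.0834 on late days (SD, n = 4 each), with p = 0.0556 in an exact two-sided permutation test within lines, the smallest that it allows. Every late library thus had a lower median and a higher 99th percentile than every early one. The 99th percentile was not tested.

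The pattern was the same after every cell was thinned to 2000 UMIs. The median cell then had 18, 13, 9 and 12 FTH1 UMIs in SW620 and 19, 13, 10 and 8 in SW620-TET2CD. The tenth of cells with most FTH1 held 20.7%, 22.4%, 34.4% and 39.6% of all FTH1 UMIs in SW620, and 20.9%, 21.7%, 30.7% and 37.7% in SW620-TET2CD. Its mean was 21.4% ± 0.81 on early days and 35.6% ± 3.92 on late days (SD, n = 4 each), with p = 0.0556 in the same exact permutation test (adjusted p = 0.178 over 8 comparisons of 4 genes, the median included). The variance over mean of FTH1 UMIs rose from between 4.24 and 5.75 to between 11.8 and 30.5. The corresponding share for FTL moved from 23.1% ± 0.98 to 24.8% ± 1.25 (p = 0.167, exact permutation test), and its variance over mean stayed between 1.32 and 1.79 in all 8 libraries. That of NQO1 moved from 34.6% to 39.4% and that of GPX2 from 31.4% to 34.8% (p = 0.111 for each, exact permutation test).

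**Figure D4:**
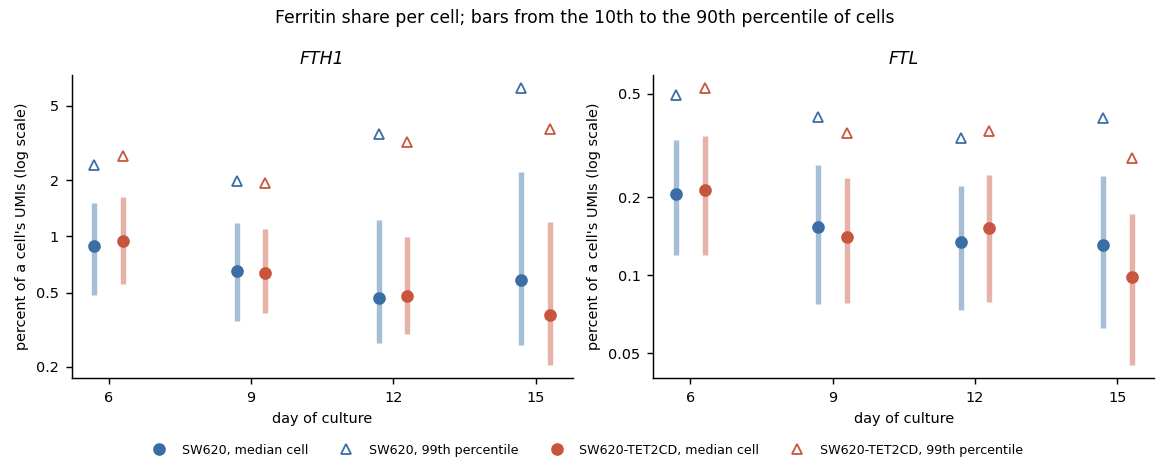
Share of a cell's UMIs (log axis) that came from FTH1 (left) and FTL (right) by day of culture, with the median cell (filled circle), the 10th to 90th percentile (bar) and the 99th percentile (triangle) of the cells of each library. The median of FTH1 sank to 0.38% in SW620-TET2CD on day 15 while the 99th percentile reached 6.22% in SW620.

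The tenth of cells with the highest FTH1 share is described by its other genes, with no test, since FTH1 chose the cells. On days 12 and 15 these cells had a mean of between 6.47 and 7.63 hypoxia-score UMIs in 2000, against between 3.87 and 4 in the other cells, and on days 6 and 9 between 0.85 and 1.51 against between 0.666 and 1.13. Of them, between 0.733% and 5.41% were cycling late, against between 5.26% and 13.5% of the other cells. FTL was higher in them in 8 of 8 libraries, by 0.17 to 0.51 on the log2 scale, and GPX2 lower in 8 of 8, by -0.66 to -0.07. HMOX1 was higher in 7 of 8, with log2 ratios from -0.07 to 1.92. NQO1 was higher in them on days 6 and 9 (0.24 to 0.51) and lower on day 15 (-0.43 in SW620 and -0.12 in SW620-TET2CD), and SLC7A11 ranged from -0.59 to 0.64. The other 4 members ranged from -0.33 to 0.41. The late cells had a median mitochondrial share of between 3.31% and 5.02%, against between 5.48% and 7.19% in the rest. On day 15 their median UMIs were 6126 in SW620 and 6474 in SW620-TET2CD, against 7308 and 8584 in the rest. On days 6 and 9 this median was above that of the rest in every library, and on day 12 in SW620-TET2CD only. The part of depth in these differences was not tested. The non-member whose lowest log2 ratio over the 8 libraries was highest, chosen after its values were seen, was the antisense RNA IGFL2-AS1, at 1.54 to 2.61.

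SW620-TET2CD and SW620 were then compared at matched days. No member passed the test (4.21% of all genes did), by edgeR or by DESeq2, and 2 members had an unadjusted p under 0.05 (14.6% of all genes had). These were SLC7A11, lower in SW620-TET2CD on 4 of 4 days (log2 fold change -0.34, SE 0.093, edgeR adjusted p = 0.0676), and GPX2, also lower on 4 of 4 days (-0.32, SE 0.12, adjusted p = 0.222). SLC7A11 passed without the low-count filter, with every barcode and without the upper limits on cells (adjusted p from 0.0206 to 0.0278). The members' median log2 fold change was -0.13, against -0.004 over all genes. It turned to 0.017 without SW620 of day 15 and to 0.0105 without SW620-TET2CD of day 15. NFE2L2 (-0.1, adjusted p = 0.682) and KEAP1 (-0.02, adjusted p = 0.941) did not pass. Of the 97 other redox genes, 1 rose and 2 fell, and ABCC3 was the one that met the rule for naming (-0.47, SE 0.1, edgeR adjusted p = 0.0261), a call that was lost on leaving out any 1 library of days 6, 9 or 12 (adjusted p from 0.065 to 0.122).

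Bulk RNA-seq gave the members as TPM, which takes account of transcript length and so lets genes be set side by side. In bulk, fewer cells of a type and less RNA per cell cannot be told apart. FTH1 and FTL led the list, at 5262 to 7440 TPM and 731 to 954 TPM on day 15, and HMOX1 closed it, at 0.62 to 1.3 TPM. In SW620 the step from day 6 to day 15 had 1 library at its start and no test. The label of that library ends in a 2, and whether this marks a repeat is not stated. SLC7A11 stood at 4.5 TPM on day 6 and at 24.8 TPM inside and 21.7 TPM outside the colonies on day 15. GCLM stood at 11.6 TPM on day 6 and at 7.98 and 8.35 TPM, HMOX1 at 2.35 and at 0.68 and 0.62 TPM, and NQO1 at 366 and at 230 and 205 TPM. GPX2 stood at 623 TPM and then at 405 and 399 TPM, and FTH1 at 6736 TPM and then at 5262 and 6265 TPM. These 6 had the signs of the single-cell fold changes of late over early days, and GCLC, at 45.6 TPM and then 43.7 and 49.2 TPM, lay on both sides of its day 6 level. TXNRD1, called lower in the single-cell sums, stood at 63 TPM on day 6 and at 54.2 TPM inside and 64.1 TPM outside, so that it was not lower outside the colonies. SRXN1, at 36.2 TPM and then 37.6 and 41.3 TPM, and FTL, at 691 TPM and then 825 and 796 TPM, were not lower on day 15 in bulk, whereas both were lower in the single-cell sums of the same line.

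Cells outside and inside the colonies were compared with the line as a block. No member passed and no gene did (0% of 17722), with 0 members and 1068 genes at an unadjusted p under 0.05 by edgeR, and 0 members and 24 genes called by DESeq2. The other line is the sole replicate of a location. SLC7A11 was lower outside in both lines, at 21.7 against 24.8 TPM in SW620 and 19.5 against 23.7 TPM in SW620-TET2CD, and GPX2 likewise, at 399 against 405 TPM and 94.3 against 167 TPM. FTL was also lower outside in both, at 796 against 825 TPM and 731 against 954 TPM. GCLM, GCLC and TXNRD1 were higher outside in both lines, by log2 ratios of 0.07 to 0.32. The values of NQO1, HMOX1, SRXN1 and FTH1 went opposite ways in the 2 lines.

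**Figure D5:**
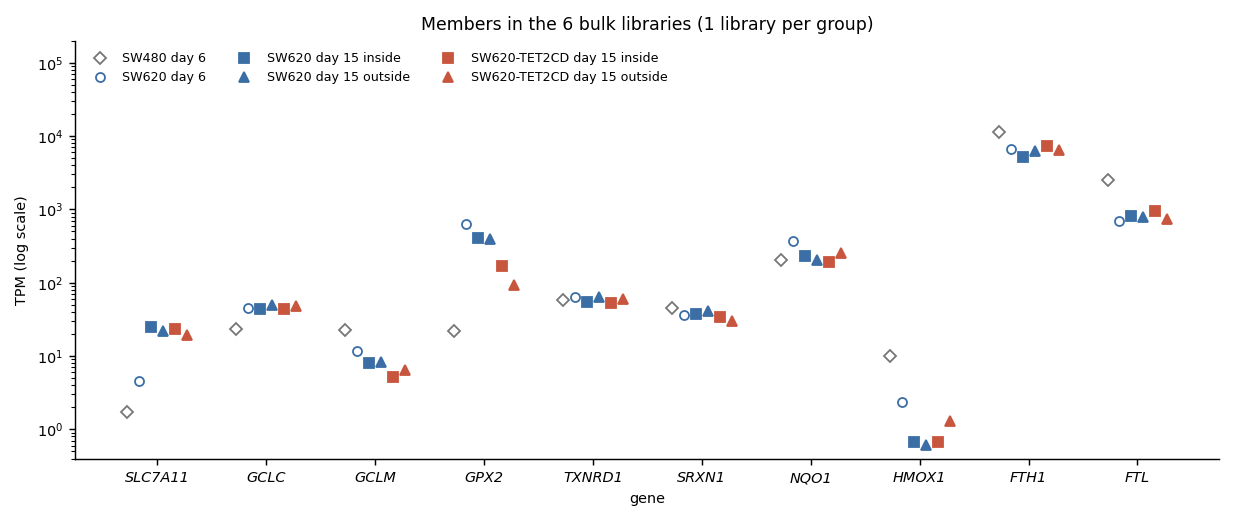
TPM (log axis) of each member (horizontal axis) in the 6 bulk libraries, 1 library per point. GPX2 ran from 22.1 TPM in SW480 to 623 TPM in SW620 on day 6, and on day 15 it stood lower in SW620-TET2CD (167 and 94.3 TPM) than in SW620 (405 and 399 TPM).

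Between the lines on day 15 no member passed in bulk (0.412% of all genes did), with 2 at an unadjusted p under 0.05 by edgeR (20% of all genes were) and 1 called by DESeq2 (4.33% of the genes it adjusted were). That 1 was GPX2, with 405 and 399 TPM inside and outside the SW620 colonies and 167 and 94.3 TPM for SW620-TET2CD (log2 fold change -1.72, SE 0.23, edgeR adjusted p = 0.0652). It passed by DESeq2 (adjusted p = 1.81e-12), without the filter and with upper-quartile factors (adjusted p = 0.0472). In the single-cell libraries of day 15 GPX2 stood at 585 CPM in SW620 and 462 CPM in SW620-TET2CD, a log2 ratio of -0.34, against -1.28 inside and -2.08 outside in bulk TPM. For FTH1 the 2 assays differed in sign on day 15. Its log2 ratio of SW620-TET2CD over SW620 was -0.78 in the single-cell libraries, and 0.5 inside and 0.06 outside in bulk TPM.

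SW480 and SW620 were sequenced in bulk on day 6, 1 library each, and are given side by side with no test. GPX2 was 28.3-fold higher in SW620, at 623 against 22.1 TPM. SLC7A11 (4.5 against 1.75 TPM), GCLC (45.6 against 23.6 TPM) and NQO1 (366 against 206 TPM) were also higher in SW620. HMOX1 was 4.22-fold higher in SW480 (9.92 against 2.35 TPM), FTL 3.62-fold (2496 against 691 TPM), GCLM 1.96-fold (22.8 against 11.6 TPM) and FTH1 1.68-fold (11294 against 6736 TPM). TXNRD1 and SRXN1 differed least, at 57.7 against 63 TPM and 45.7 against 36.2 TPM. The members thus did not stand as a block on either side, with 5 of 10 higher in SW480.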

How the data were processed

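RNA was measured in 8 single-cell and 6 bulk libraries. The authors deposited UMI counts per gene and barcode, made with Cell Ranger 4.0 on GRCh38, and RSEM tables that hold each gene's expected count and its TPM. Per the labels the bulk tables used Bowtie, RSEM and mm10, although the gene identifiers are human, and the sources used here do not name the human annotation behind them.

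Kept cells had 1000 to 20000 UMIs, no more than 10% of them mitochondrial, and 200 to 4500 detected genes, and counts were summed per library. Doublets were not called. Expected counts were rounded, and 45 Y copies of pseudoautosomal genes were left out. Tests used edgeR 4.0.16 (filterByExpr, TMM, quasi-likelihood, two-sided) in R 4.3.3. Benjamini-Hochberg adjustment ran across every gene tested, at a threshold of 0.05, with DESeq2 1.42.0 and limma 3.58.1 as alternatives. Single-cell sums had 5 residual degrees of freedom between periods and 3 between lines, bulk 1. Tested on simulated counts, edgeR found 99% of 100 genes changed by 1 on the log2 scale between periods (16598 genes tested), 98% between lines (16614) and 82% between locations (17742). These simulated counts share 1 dispersion, so recovery in the real data may be lower. Positions are from GENCODE on GRCh38, by identifier.

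The members and lists were chosen with earlier results of these data known. Besides all members, the other redox genes named are the 4 highest rises and 4 deepest falls past the threshold in each of the comparisons of period and line, with a mean of at least 8 CPM and the same direction in both lines or on all 4 days, and always NFE2L2, KEAP1 and TET2. One gene that met this rule is not reported here. One gene symbol that occurs more than once was left out of the lists. Alternatives were another test, filter, scaling, block, choice of cells and each library left out.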

Additional observations from a re-analysis of the deposited data

Results flagged for a closer look

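HMOX1 in SW620-TET2CD on day 12, at 2.24 CPM, stood above the other 3 late libraries, and GCLC in SW620 on day 9, at 21.8 CPM, stood below the other 3 early ones. Each exceeded the limit of Dixon's test for 4 samples, which chance alone passes in about 1 of 20 groups. The test assumes replicates, whereas the 4 libraries of a period come from both lines and from different days.

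In bulk, the log2 ratio of cells outside over inside the colonies had opposite signs in the 2 lines for 4 members. SW620-TET2CD minus SW620 came to 0.58 for NQO1, 1.07 for HMOX1, -0.31 for SRXN1 and -0.44 for FTH1. With 1 library per line and location these differences were not tested.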

How the results depend on the processing

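Between early and late days SLC7A11, GCLM and TXNRD1 passed under all 17 alternatives run. When a library was left out, 4 to 7 members were called, beside 8127 to 10120 genes over all (9587 of 16526 in the main fit). Upper-quartile factors turned GCLC to 0.047. Between the lines 1 member passed without the low-count filter, with every barcode and without upper limits, and 0 with any library left out. KEAP1 turned to 0.0084 with upper-quartile factors and to 0.011 with every barcode, and ranged from -0.049 to 0.020 with a library left out. The 5 calls over the 3 day steps became 8 by DESeq2, 9 without the filter, 2 in low-cycle cells and 2 to 13 with a library left out. Counts over all genes are not given for the steps without the filter or in low-cycle cells. Those member counts therefore cannot be set against all genes. By DESeq2 the steps in turn had 4, 3 and 1 members called, beside 371, 6202 and 1892 genes over all. In bulk between the lines 1 member passed by DESeq2, without the filter and with upper-quartile factors, and 0 by limma. In hypoxia classes 1 passed with upper-quartile factors, 1 in the early libraries alone (added after the data were seen) and 0 to 3 with a library left out. Cycling classes gave 7 to 8 with a library left out, beside 7406 to 8173 genes over all (8259 of 14853 in the main fit). The cause of these changes was not tested.

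Counts over all genes that moved by over 1.5 times were, between the lines, 46 without the day block, 1489 without the filter and as few as 416 with a library left out, against 696. For the line by period they were 15 without the filter, against 0, and for location 24 by DESeq2, 1 by limma and 472 without the filter, against 0. For bulk lines they were 704, 14, 2239, 178 (upper-quartile) and 8 (no block), against 73. For hypoxia classes they were 3645 by DESeq2, 152 with upper-quartile factors, 6735 in late and 917 in early libraries, and 9 to 3099 with a library left out, against 1794. For the day steps together, leaving out a library gave 4918 to 13254, against 9689. The step from day 6 to day 9 alone had 371 by DESeq2, against 153.

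The lines were matched by day and the cell classes by library, as blocks in the fits above. No pairing by replicate number was possible because each group has 1 library. Leaving out a bulk library left no residual degree of freedom and so no test. Depth limits HMOX1 most, with 56 UMIs in its lowest library.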
